A study of Mus musculus with 66 samples.

Results

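The 10 genes Cacna1s, Cacng1, Ryr1, Trdn, Jph1, Jph2, Casq1, Casq2, Atp2a1 and Sln were taken from a table of 22489 genes as the named components of excitation-contraction coupling and calcium handling in muscle, and their level was read in each of 20 mRNA-Seq libraries of C2C12 cells. C2C12 is a mouse myoblast line that leaves the cell cycle and forms myotubes when serum is lowered. The libraries came from 10 lines, each with 1 library from growing cells and 1 from differentiated cells. WT cells carried no GFP-tagged H3 gene, and the other 9 lines carried a doxycycline-inducible histone H3 with GFP at its N-terminus, which was H3.3, an H3.3-like variant (H3mm16, H3mm13, H3mm12, H3mm11 or H3mm7), H3.2, H3.1 or the H3.1-like H3t. The study asked whether overexpressed H3 variants change gene expression during differentiation. Growing cells were kept in medium with 20% fetal bovine serum and taken before confluence, and differentiated cells were moved to medium with 2% horse serum at confluence and taken 48 h later. The GFP-H3 genes entered by a Tol2 transposon with a Tet-On transactivator, the cells were selected with doxycycline and G418, and GFP-positive cells were sorted. The study describes the GFP-H3 lines taken for mRNA-Seq as stably expressing and overexpressing the variants. Whether doxycycline was present in those cultures is not given in the sources used here. Each H3 protein was represented by 1 line, so the H3 protein and any other property of its line cannot be told apart.

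Excitation-contraction coupling turns depolarization of the muscle cell membrane into a rise of calcium in the cytoplasm. The voltage-sensing calcium channel of the transverse tubule, whose pore subunit is Cacna1s, is coupled to the ryanodine receptor Ryr1 in the facing membrane of the sarcoplasmic reticulum, which then releases stored calcium. Junctophilins hold the apposed membranes together, triadin links the release channel to calsequestrin, the calcium-binding protein of the store, and the pump encoded by Atp2a1 returns calcium to the store, with sarcolipin as its small inhibitor.

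Values are FPKM, in which fragment numbers are scaled to exon length and to the mapped reads of the library, so levels of different genes are compared per length. Differences were tested with limma on log2(FPKM + 1), a scale that understates changes of genes near 0, among the 10954 genes with a mean of at least 1 FPKM over the 20 libraries. A gene was called when its Benjamini-Hochberg adjusted p was below 0.05 and its difference was at least 1 on the log2 scale. The 10 lines served as the replicates of each state, so p-values measure the spread between lines. Of the 10 genes, 9 had a mean of at least 1 FPKM and were tested, and Sln was not. The libraries listed between 13858 and 16865 genes above 0 FPKM. Both WT libraries stood apart from the GFP-H3 libraries at 218 tested genes that were at least 8-fold below the lowest GFP-H3 library and 18 that were at least 8-fold above the highest. Gapdh was among those that stood apart, at 0.263 to 0.361 FPKM in WT and 783 to 2094 FPKM in the GFP-H3 lines. None of the 10 genes and none of 65 further calcium genes examined was in either set.

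Promoter sequences were looked up for the 10 genes because 9 of them rose together on differentiation, and the E-box CANNTG is the core to which the myogenic factors of the MyoD family bind. RefSeq promoters (250 bases before to 50 after a start, GRCm38.p6) were found for Cacna1s, Ryr1, Jph2, Casq1, Casq2 and Atp2a1, and each was placed in NCBIM37 (mm9), the build of the deposited values, by exact match. The form CAGCTG, which reads the same on both strands, was present in the promoters of Atp2a1, Cacna1s, Casq1 and Jph2, which is 4 of 6 genes, and in 16.1% of the promoters of all 27025 genes with an entry. The windows that hold it are given 5′ to 3′ on the strand of the gene, with the motif in capitals. Distances count from the start in the RefSeq promoter entry. For Atp2a1, Cacna1s and the Jph2 entry with the distance of 29 bases, that start lay inside the gene span given below. Their motifs thus lay closer to the 5′ end of that span.
Atp2a1, 55 bases before the start, minus strand, chr7:133606625-133606654: cctcataaggacCAGCTGggggctgggggg
Cacna1s, 123 bases before the start, plus strand, chr1:137949253-137949282: tggaaggaatgaCAGCTGcctggccgcagg
Casq1, 195 bases before the start, minus strand, chr1:174150204-174150233: gggggaaggaacCAGCTGctgggagggagc
Jph2, 29 or 9 bases before the start by which of its entries is used, minus strand, chr2:163223721-163223750: gaaggggcggggCAGCTGggagatctgagc

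Other E-box forms were present in Casq1 and Casq2. CAGGTG, searched with its reverse complement, was found in Casq1 alone among the 6 genes and in 20.0% of all promoters. Casq2 held no CAGCTG or CAGGTG in its window but the other E-box forms CACTTG and CAACTG, shown here for comparison.
Casq1, 67 bases before the start, minus strand, chr1:174150076-174150105: tttagacaggacCAGGTGgggacggagggg
Casq2, 200 bases before the start, plus strand, chr3:101890126-101890155: gcccctttatttCACTTGcatacggtccct
Casq2, 52 bases before the start, plus strand, chr3:101890274-101890303: tttagctcgaaaCAACTGcatcctaaaaat

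Any CANNTG, searched as a set that contains both forms above, was present in 5 of the 6 genes and in 72.1% of all promoters, and Ryr1 had none in its window. The MEF2 motif form in which CTA and TAG are 4 bases apart was in none of the 6 windows and in 3.7% of all promoters. These matches describe the letters in the windows only.

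In differentiated cells the 9 tested genes were higher than in growing cells, and in each of them the lowest differentiated library lay above the highest growing one. Among the tested genes 9 of 9 were called higher, where 8.87% of all tested genes were called higher and 8.41% lower. Of these 9, Cacna1s, Ryr1, Trdn, Casq1, Casq2 and Atp2a1 had medians of 0.618 FPKM or less in growing cells and passed the filter on the mean through the differentiated libraries, so for them the count only repeats the filter in part. With no filter on low values 9 of the 10 genes were called higher, where 4.43% of 22489 genes were. Differentiated libraries all above growing ones were seen in 8.85% of tested genes. The differentiated level was the higher one within each of the 10 lines for all 9, as it did in 22.7% of tested genes. The differences of the 9 genes ranged from 1.63 to 6.59 on the log2 scale, and the median of all tested genes was 0.04. In bulk RNA, fewer cells that differentiated and less RNA of a gene per cell cannot be told apart. Markers of other cells were read beside these genes. All 11 myotube markers (among them Actc1, Mylpf and Tnnc2) were called higher and all 4 proliferation markers (Mki67, Top2a, Ccnb1 and Pcna) lower. Of 8 cardiac markers 3 were tested, of which Nppb was lower and none higher. Among the 5 cardiac markers too low to test, Myh6 was at 0 to 0.0418 FPKM in growing and 0.0730 to 2.48 FPKM in differentiated cells, without overlap, and Mybpc3 was higher in 10 of 10 lines but reached only 0.304 FPKM. Of 7 adipocyte and cartilage markers 3 were tested and none was called. The summed level of the myotube markers was 7.03 to 251 FPKM in growing and 5486 to 29868 FPKM in differentiated libraries, that of the cardiac markers, made up mostly of Nkx2-5, Gata4 and Nppb, 20.9 to 50.1 and 15.3 to 36.5 FPKM. Of 6 smooth muscle markers 5 were tested, with Acta2 higher and Cnn1 lower, and of 6 myoblast markers 5 were tested, with Des, Cdh15 and Ncam1 higher.

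**Figure D1:**
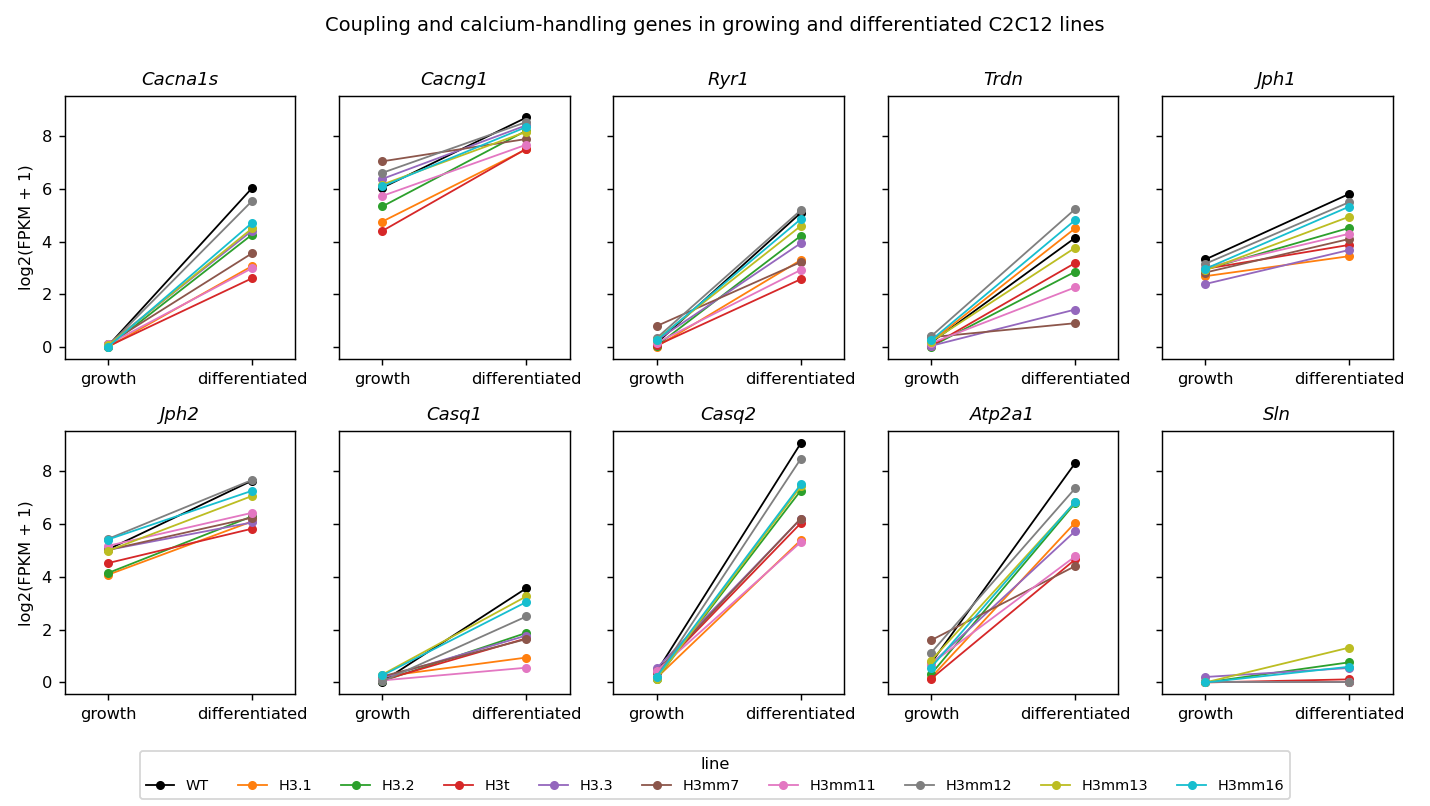
Level of each of the 10 genes as log2(FPKM + 1) (vertical axis) in growing and differentiated cells (horizontal axis), where each point is 1 library and each line joins the libraries of 1 cell line by colour. In the 9 tested genes every differentiated point lies above every growing point, while Sln stays at 1.50 FPKM or below.

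Cacna1s encodes the pore and voltage sensor of the channel and lies at chr1:137949327-138016399 on the plus strand of mm9. In growing cells its level was between 0 (H3.1) and 0.0862 FPKM (H3mm7), with a median of 0.0272. In differentiated cells it was between 5.11 (H3t) and 64.5 FPKM (WT), with a median of 19.3. The lowest lines after differentiation were H3t, H3mm11 and H3.1 and the highest WT and H3mm12, and the states did not overlap. The difference was 4.12 ± 0.33 (SE) on the log2 scale (limma adjusted p = 8.79e-10, 10 libraries a state), the 43rd largest rise in the table.

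Cacng1 encodes the gamma subunit of the same channel (chr11:107564532-107577836, minus strand). It was the member with the highest median level in both states, with 20.1 (H3t) to 131 FPKM (H3mm7) in growing cells, median 66.0, and 180 (H3.1) to 416 FPKM (WT) in differentiated cells, median 290. Its message was thus present well above the other channel subunit before differentiation. The difference was 2.24 ± 0.27 (limma adjusted p = 4.83e-07). Within a line the rise was from 1.81-fold in H3mm7, where the growing level was highest, to 9.06-fold in H3t, where it was lowest.

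Ryr1 encodes the calcium release channel (chr7:29788359-29910170, minus strand). It was listed at 0.0125 (H3.1) to 0.736 FPKM (H3mm7) in growing cells, median 0.153, and at 4.95 (H3t) to 35.5 FPKM (H3mm12) in differentiated cells, median 15.96. The states did not overlap, and the difference was 3.75 ± 0.29 (limma adjusted p = 3.95e-10). Its span holds the non-coding gene Gm16799 on the other strand and the microRNA gene Mir1963, and whether the counting used strand is not given in the sources used here.

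Trdn encodes triadin, which anchors calsequestrin at the release site (chr10:32803289-33196515, plus strand). Growing cells had 0.0148 (H3.2) to 0.323 FPKM (H3mm12), median 0.137. The differentiated levels spread more than those of any other tested gene of the set, 41.9-fold, with 0.872 FPKM in H3mm7, 1.68 in H3.3, 3.80 in H3mm11, 6.24 in H3.2, 8.10 in H3t, 12.6 in H3mm13, 16.6 in WT, 21.7 in H3.1, 27.1 in H3mm16 and 36.5 in H3mm12. H3.1 was among the 3 highest lines here, whereas it was below the mean of the 10 lines for the other 8 genes. Trdn rose by 3.12 ± 0.43 on the log2 scale (limma adjusted p = 2.62e-06), and within H3mm7 the rise was only 2.95-fold.

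Jph1 and Jph2 encode the junctophilins that tether the plasma membrane to the sarcoplasmic reticulum. Jph1 (chr1:16987545-17087879, minus strand) was at 4.24 (H3.3) to 8.98 FPKM (WT) in growing cells, median 6.74, and at 9.90 (H3.1) to 55.1 FPKM (WT) in differentiated cells, median 20.3. Jph2 (chr2:163161978-163223729, minus strand) was at 15.9 (H3.1) to 42.5 FPKM (H3mm12) in growing cells, median 31.5, and at 55.9 (H3t) to 204 FPKM (H3mm12) in differentiated cells, median 81.6. Both were thus expressed before differentiation and had the smallest changes of the 9 genes. The differences were 1.63 ± 0.25 for Jph1 (limma adjusted p = 1.06e-05) and 1.78 ± 0.25 for Jph2 (limma adjusted p = 3.05e-06). The growing and differentiated levels did not overlap in either gene.

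Casq1 and Casq2 encode the calsequestrins that bind calcium inside the store, known as the forms of fast skeletal muscle and of cardiac and slow muscle. Casq1 (chr1:174140025-174150026, minus strand) was at 0.0233 (WT) to 0.229 FPKM (H3mm13) in growing cells, median 0.0941, and reached only 0.474 (H3mm11) to 10.9 FPKM (WT) in differentiated cells, median 2.56. Casq2 (chr3:101890338-101950437, plus strand) went from 0.1001 (H3mm13) to 0.449 FPKM (H3.3), median 0.237, in growing cells to 38.9 (H3mm11) to 536 FPKM (WT), median 114, in differentiated cells. The lowest differentiated level of Casq2 was above the highest of Casq1. Casq2 rose by 6.59 ± 0.38 on the log2 scale (limma adjusted p = 6.17e-12), the 16th largest rise in the table and the largest of the 10 genes on this scale, while by the ratio of medians Cacna1s rose more (709-fold against 479-fold). Casq1 rose by 1.94 ± 0.30 (limma adjusted p = 9.32e-06), a difference that was 0.77, below the threshold of 1, when 5 FPKM was added before taking logarithms. The span of Casq1 also holds Gm17224, a processed transcript on the other strand.

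Atp2a1 encodes the calcium pump of fast muscle (chr7:133589372-133606622, minus strand). Growing cells had 0.0976 (H3t) to 2.03 FPKM (H3mm7), median 0.618. Differentiated cells had 20.3 FPKM in H3mm7, 24.3 in H3t, 26.5 in H3mm11, 52.3 in H3.3, 65.7 in H3.1, 110 in H3.2, 113 in H3mm13, 114 in H3mm16, 163 in H3mm12 and 317 in WT. H3mm7 was thus the highest growing line and the lowest differentiated line. The difference was 5.49 ± 0.40 (limma adjusted p = 2.10e-10), the 22nd largest rise in the table. The gene shares bases with Rabep2 on the other strand, which was at 4.43 to 11.2 FPKM in growing and 4.75 to 15.1 FPKM in differentiated cells.

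Sln encodes sarcolipin, the small inhibitor of the pump (chr9:53698058-53701651, plus strand). It was listed at 0 in 9 of 10 growing libraries and at 0.155 FPKM in H3.3. In differentiated cells it was listed at 0 in WT, H3.1, H3mm7, H3mm11 and H3mm12, at 0.0856 FPKM in H3t, 0.462 in H3.3, 0.513 in H3mm16, 0.699 in H3.2 and 1.50 in H3mm13. The lines with a value above 0 were not those with the highest pump level, since WT and H3mm12 had none. With no filter on low values the difference was 0.31 (limma adjusted p = 0.113), which did not pass the threshold. FPKM does not keep the read number, so a level listed at 0 has no detection limit here.

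Set in order by median, the differentiated levels ran from Cacng1 at 290 FPKM through Casq2 (114), Atp2a1 (87.9), Jph2 (81.6), Jph1 (20.3), Cacna1s (19.3), Ryr1 (15.96), Trdn (10.3) and Casq1 (2.56) to Sln (0.0428). Between neighbours, the mean difference over the 10 lines exceeded its SD for Cacng1 over Casq2 (1.202 ± 0.92 on the log2 scale), Casq2 over Atp2a1 (0.71 ± 0.65), Jph2 over Jph1 (2.12 ± 0.26) and Casq1 over Sln (1.75 ± 0.90). The other neighbours did not differ beyond their spread, and Jph2 was above Atp2a1 in 8 of 10 lines in spite of its lower median. In growing cells 3 genes stood clear of the rest, Cacng1 (66.0 FPKM), Jph2 (31.5) and Jph1 (6.74). The other 7 had medians of 0.618 FPKM or less, and none of the neighbours among them differed beyond their spread.

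The balance between paralogs was read within each library, where depth cancels. The ratio of Casq1 to Casq2 went from a median of 0.323 in growing cells (0.0715 to 2.29, both genes at 0.449 FPKM or below) to 0.0258 in differentiated cells (0.0122 in H3mm11 to 0.0504 in H3mm13), so Casq2 was the higher calsequestrin in 10 of 10 differentiated libraries. The ratio of Atp2a1 to Atp2a2, the pump found in most tissues, went from a median of 0.00709 (0.00106 to 0.0302) to 0.509 (0.135 in H3mm7 to 0.863 in WT). Atp2a2 thus remained the higher pump message in 10 of 10 lines, although Atp2a1 was the message with the larger rise.

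Jph1 to Jph2 had a median of 0.206 in growing cells (0.135 in H3.3 to 0.399 in H3.2) and 0.221 in differentiated cells (0.146 in H3.1 to 0.282 in H3.2). The lines did not move alike, since the ratio went from 0.341 to 0.146 in H3.1 and from 0.399 to 0.282 in H3.2 but from 0.163 to 0.256 in H3mm16. Ryr1 to Ryr3, the release channel of immature and some adult muscle, had a median of 0.496 in growing cells. The ratio was above 1 in 2 of 10 growing libraries, where both genes were at 0.736 FPKM or below. In differentiated cells the median was 14.2 (4.51 in H3t to 42.1 in H3.2), with 10 of 10 above 1. Ryr3 itself was higher after differentiation in 10 of 10 lines but stayed at 2.81 FPKM or below. Ryr2, the cardiac channel, stayed at 0.0694 FPKM or below. Sln to Atp2a1 had a value above 0 in 5 differentiated libraries, with a median of 0.00635, and in 1 growing library, H3.3, where it was 0.255 with both genes below 1 FPKM. These ratios are descriptions of the deposited levels and were not tested.

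**Figure D2:**
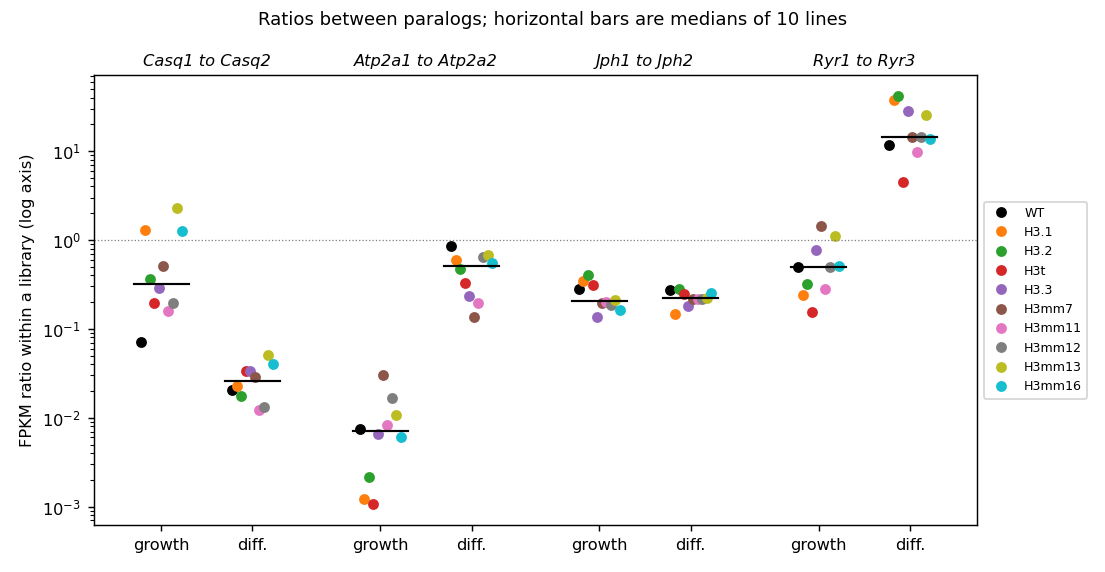
Ratio of the FPKM values of 2 paralogs within a library (vertical log axis) for 4 pairs in growing and differentiated cells, with 1 point per line by colour and a bar at the median. The Casq1 to Casq2 and Atp2a1 to Atp2a2 ratios are below 1 in every differentiated library, Jph1 to Jph2 has medians of 0.206 and 0.221, and Ryr1 to Ryr3 is above 1 in every differentiated library.

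The other genes of the pathway were described from 65 genes listed by role, of which 53 had a mean of at least 1 FPKM. Of these 53, 21 were called higher in differentiated cells and 0 lower, and the remaining 32 were not called. Over all tested genes 8.87% were called higher and 8.41% lower, and the median difference was 0.59 for the 53 genes against 0.04. Cacnb2, another beta subunit, and Nfatc1, a calcium-regulated transcription factor, were lower in 10 of 10 lines without overlap between states, but their differences of -0.81 ± 0.12 (limma adjusted p = 4.23e-06) and -0.97 ± 0.11 (limma adjusted p = 1.28e-07) were smaller than the threshold of 1. The counts differed by role, and genes of the junctions made up the largest share of those called.

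Among other subunits of the voltage sensor, 3 of 5 tested rose, namely Cacnb1, the beta subunit of the channel (3.56 ± 0.25 on the log2 scale), Stac3, an adaptor needed for coupling in skeletal muscle (3.54 ± 0.32), and Cacna2d1, the alpha-2/delta subunit (1.46 ± 0.26). Of the junction genes 7 of 8 rose, led by Jsrp1 (4.29 ± 0.41), Cav3, the caveolin of muscle (3.38 ± 0.33), and Tmem38a, a cation channel of the sarcoplasmic reticulum (3.35 ± 0.32). Of the store genes 2 of 4 rose, Srl, which encodes sarcalumenin (5.11 ± 0.41), and Hrc, a histidine-rich calcium-binding protein (3.93 ± 0.34), each within the range of the calsequestrins. Calr, the calreticulin of the general endoplasmic reticulum, was not called (0.46 ± 0.39) and reached 2707 FPKM in differentiated H3mm7 cells against a median of 404 FPKM.

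Both other pump genes rose, Atp2a3 by 2.10 ± 0.47 and Atp2a2 by 1.05 ± 0.21. Atp2a3 was highest in differentiated H3mm7 cells, at 31.5 FPKM against a median of 2.91, the line in which Atp2a1 was lowest. Pln, which encodes phospholamban, stayed at 1.45 FPKM or below and was not tested.

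Fewer genes rose in the remaining roles, with a rise counted only where the gene was called. Among other release channels and their regulators 1 of 9 rose, S100a1, a calcium-binding protein (1.67 ± 0.19), and the 3 calmodulin genes and Fkbp1a were among those not called. For membrane excitability 2 of 5 rose, among them Scn4a, the sodium channel of skeletal muscle (1.96 ± 0.28). Among genes of calcium buffering and extrusion 2 of 5 tested rose, among them Mcu, the pore of the mitochondrial calcium uniporter (1.11 ± 0.17). Among genes that decode calcium 2 of 9 rose, Camk2a (3.37 ± 0.27) and Ppp3ca, a catalytic subunit of calcineurin (1.34 ± 0.16). None of the 6 tested genes of store-operated entry was called, with Stim1 nearest at 0.93 ± 0.24. Stim1 (limma adjusted p = 0.0024), Orai1 (1.3e-04), Orai3 (3.1e-04) and Stim2 (0.0076) were higher but below the threshold of 1. The other tested genes of this role had limma adjusted p of 0.193 or more.

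**Figure D3:**
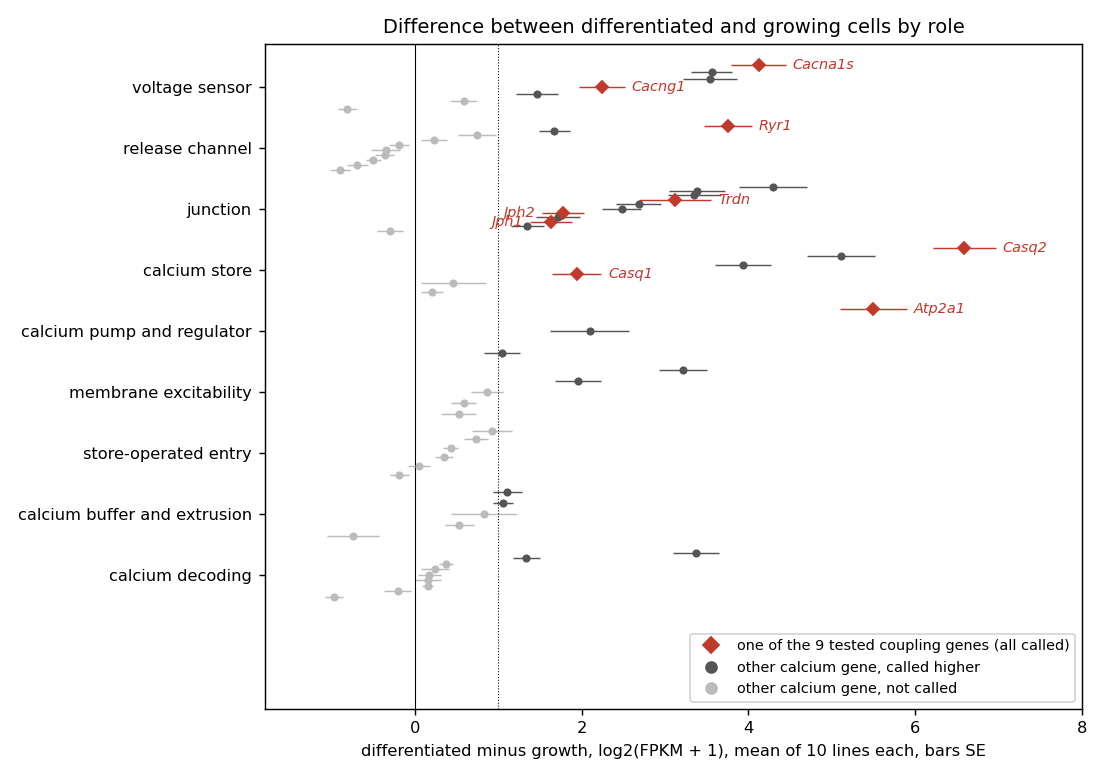
Difference between differentiated and growing cells on the log2(FPKM + 1) scale (horizontal axis, bars are the SE, dotted line at the threshold of 1) for 9 tested coupling genes and 53 other calcium genes, in rows by role. The coupling genes (red diamonds) lie between 1.63 and 6.59, and no gene of store-operated entry passes the threshold.

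The lines differed among themselves after differentiation. Expressed as the mean deviation of the 9 genes from their own means over the 10 differentiated libraries, WT was at 1.38 on the log2 scale, H3mm12 at 1.12, H3mm16 at 0.75 and H3mm13 at 0.51. H3.2 was at 0.04, H3.3 at -0.48, H3.1 at -0.62, H3mm7 at -0.86, H3t at -0.89 and H3mm11 at -0.97. In each of WT, H3mm12, H3mm13 and H3mm16, 9 of 9 genes were above their mean, and in H3t, H3mm7 and H3mm11 0 of 9 were. WT was the highest line for 6 of the 9 genes and H3mm12 for the other 3, where WT was the highest differentiated library in 22.5% of all tested genes.

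**Figure D4:**
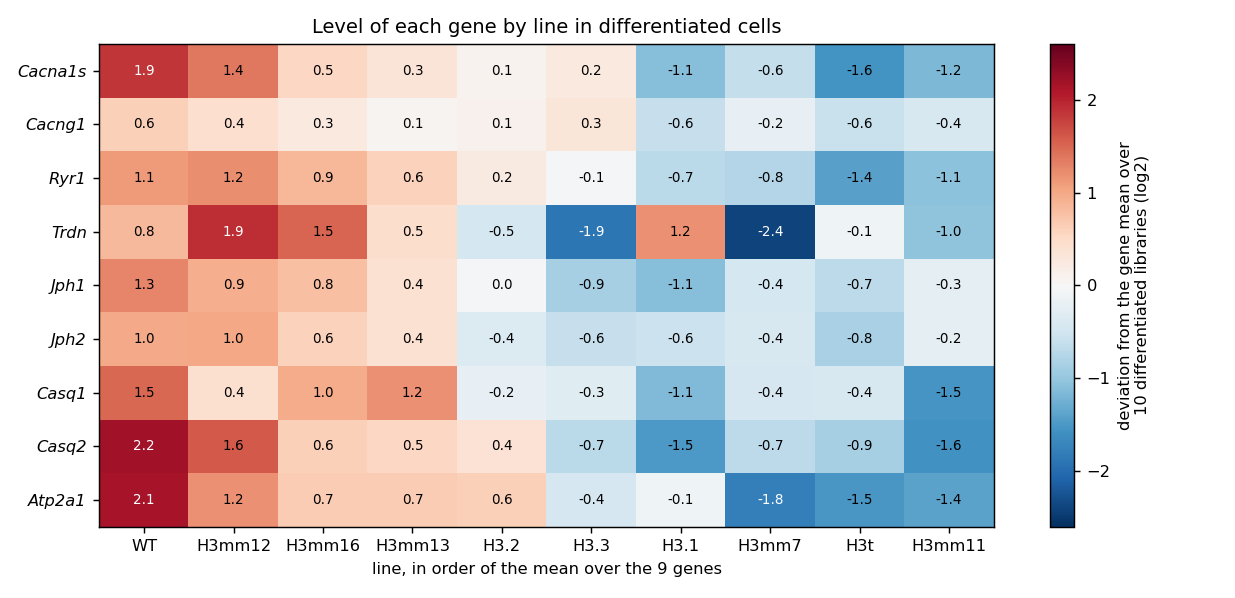
Deviation of each of 9 genes (rows) from its mean over 10 differentiated libraries, in log2 units by colour and number, for each line (columns, in order of the mean over the genes). WT, H3mm12, H3mm16 and H3mm13 are above the mean for every gene, and Trdn departs from the other rows in H3.1, where it is 1.2 above its mean.

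The order of the lines followed that of the myotube markers. The mean deviation of the 9 genes correlated with that of 11 myotube markers across the 10 differentiated libraries with Pearson's r = 0.97 and Spearman's rho = 0.92, and r was 0.98 over 9 lines without WT. The lines lay in a high and a low set with H3.2 between them, so the r largely describes that spacing, and the points share their libraries and depth. The correlation with 8 ER stress genes was -0.45. For single genes r with the marker mean was between 0.64 (Trdn) and 0.95 (Ryr1), and the part of the marker level in the differences between lines was not tested.

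**Figure D5:**
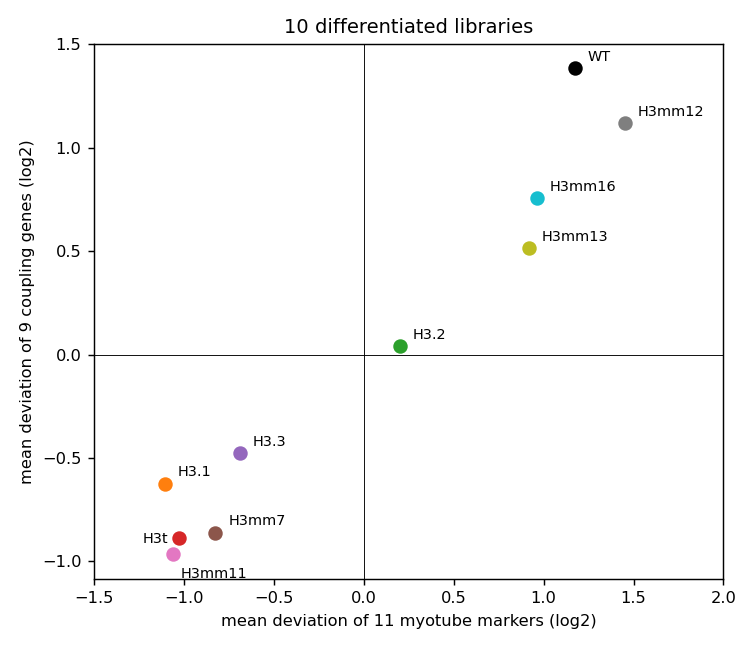
Mean deviation of 9 coupling genes (vertical axis) against that of 11 myotube markers (horizontal axis), both in log2 units, for 10 differentiated libraries, 1 point per line. H3mm12 and WT are at the upper right, and H3mm11, H3t, H3mm7, H3.1 and H3.3 form the low end.

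Pairs among the 9 genes had r of 0.25 (Cacng1 and Trdn) to 0.97 (Cacna1s and Cacng1) across the 10 differentiated libraries, with a median of 0.82 and 36 of 36 pairs above 0. Trdn was the gene least like the rest, with r = 0.58 to the mean of the other 8, where the others had 0.83 to 0.95. Trdn also had the most negative r with the mean of the ER stress genes, at -0.89, while the others were between -0.43 and 0.02. This is the most extreme of the 9 genes over 10 libraries. It was not tested, and the share of all genes with such an r was not counted. In growing cells, where 6 of the 9 genes were near 0, pairs ranged from -0.51 (Jph1 and Casq1) to 0.93 (Ryr1 and Atp2a1), with a median of 0.28.

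Genes whose differentiated levels were most like those of each member were read from 10907 genes over the same 10 libraries. Cacna1s was nearest to Tbc1d8, Scn4a and Cacng1 (r = 0.97 each), and Cacng1 to Cacna1s (0.97), Cobl and Atp2a2 (both 0.95). Ryr1 was nearest to Casz1 (0.97), Adck3 and Scrib (both 0.96), and Trdn to Maml3 (0.98), Tshz3 (0.97) and Sspn (0.96). Members of the set were thus among the nearest 3 for the channel subunits only.

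The junctophilins shared Sync among their nearest genes (0.97 for both), beside Dnajc21 (0.98) and Lmod2 (0.97) for Jph1 and Ehbp1l1 (0.97) and Bod1 (0.96) for Jph2. Casq2 was nearest to Tmod1 (0.99), Gm5480 (0.99) and Tmem182 (0.98), Casq1 to Man1a (0.95), Acsl6 and Cyp46a1 (both 0.94), and Atp2a1 to Trim54 (0.98), Cuedc1 (0.97) and Hrc (0.96). With 10 libraries and this many genes, high values of r arise for any gene, so these names are a description.

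Growing lines were ordered differently. H3mm7 was highest for Cacna1s, Cacng1, Ryr1 and Atp2a1, 4 of the 9 genes, where it was highest in 16.2% of all tested genes, and its mean deviation over the 9 genes was 0.35 on the log2 scale in growing cells and -0.86 in differentiated cells. Myog, the factor that marks entry into differentiation, was also highest in growing H3mm7 cells, at 23.1 FPKM against 0.106 in H3.1, the lowest line. Across lines the mean deviations in the 2 states had r = 0.32, and 0.64 over 9 lines without H3mm7, so 1 line set much of that value.

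The study sorted the H3 proteins by sequence into an H3.3 type, here the lines of H3.3 and of the H3mm variants (6 lines), and an H3.1/H3.2 type, here H3t, H3.2 and H3.1 (3 lines), and these were compared over the 18 GFP-H3 libraries. In differentiated cells 0 of 9 genes were called between the types, where 0.229% of 10931 tested genes were called higher and 0.54% lower in H3.3-type lines, and 2197 genes had an unadjusted p below 0.05. Cacna1s (0.97 ± 0.40 on the log2 scale, H3.3 type minus H3.1/H3.2 type), Jph2 (0.72 ± 0.28) and Jph1 (0.69 ± 0.33) had an unadjusted limma p below 0.05 and adjusted p of 0.187, 0.153 and 0.246. The fit shared 1 spread per gene between growing and differentiated libraries. In H3.3-type lines the SD of these 3 genes was 0.90, 0.64 and 0.72 in differentiated and 0.04, 0.20 and 0.26 in growing cells. In H3.1/H3.2-type lines it was also larger after differentiation, except for Jph2 (0.236 against 0.239). These SE and p-values thus understate the spread between differentiated lines, and no fit to the differentiated libraries alone was made. The other 6 genes had differences from -0.45 ± 0.72 (Trdn) to 0.76 ± 0.41 (Ryr1). The lines overlapped within each type, since H3mm11 and H3mm7 were low and H3mm12 high among H3.3-type lines.

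In growing cells Cacng1 was higher in H3.3-type lines. It was at 52.0 FPKM in H3mm11, 67.3 in H3mm16, 70.6 in H3mm13, 81.9 in H3.3, 96.3 in H3mm12 and 131 in H3mm7, and at 20.1 in H3t, 26.1 in H3.1 and 39.2 in H3.2. The types did not overlap, but the share of all tested genes without overlap between the types was not counted. The difference was 1.50 ± 0.27 (limma adjusted p = 0.0279). Cacng1 was the only one of the 9 genes called, where 0.165% of tested genes were called higher and 0.0457% lower. The call was lost, at limma adjusted p of 0.0559 to 0.253, when any of H3.1, H3t, H3.3, H3mm13 or H3mm16 was left out, and at 0.0841 with no filter on low values, while the difference stayed between 1.29 and 1.55 in these fits.

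Jph2 also did not overlap between the types in growing cells, with 30.8 to 42.5 FPKM in H3.3-type and 15.9 to 22.0 FPKM in H3.1/H3.2-type lines, but its difference of 0.93 ± 0.28 had a limma adjusted p of 0.222. At lower levels, Ryr1 (0.118 to 0.736 against 0.0125 to 0.0441 FPKM) and Atp2a1 (0.481 to 2.03 against 0.0976 to 0.242 FPKM) did not overlap either and were not called. Here too the share of all tested genes without overlap between the types was not counted. The fit shared 1 spread per gene between the states. In H3.3-type lines the SD of Jph2, Ryr1 and Atp2a1 was 0.20, 0.23 and 0.38 in growing and 0.64, 0.91 and 1.21 in differentiated cells. In H3.1/H3.2-type lines it was 0.239, 0.02 and 0.09 against 0.236, 0.82 and 1.08. The SE and p-values of these 3 genes thus overstate the spread between growing lines, and no fit to the growing libraries alone was made. The mean log2(FPKM + 1) of the 11 myotube markers in growing cells was 1.97 to 3.33 in H3.3-type lines and 0.54 to 1.28 in H3.1/H3.2-type lines, so it moved with the type in the same direction, and its part in the Cacng1 result was not tested.

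The response to differentiation was compared between the types by the interaction of type and state. By limma 0 genes and 0 of the 9 members were called, while 999 genes had an unadjusted p below 0.05. Cacng1 had the smallest p of the 9, with a rise that was smaller by 1.08 ± 0.38 on the log2 scale in H3.3-type lines (unadjusted limma p = 0.0116, adjusted p = 0.455). The other members had adjusted p of 0.683 or more, with differences of either sign.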

How the data were processed

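mRNA-Seq libraries were made from oligo-dT-primed cDNA of total RNA. For GFP-H3 cells the authors used TopHat 2.0.8 with the mm9 genome, and they ran cuffdiff (Cufflinks 2.0.1, default settings) to obtain the FPKM they deposited. How WT reads were mapped and whether strand was used are not given in the sources used here. Read numbers are not kept in FPKM, so depth is unknown and no counting interval was given. The columns of the line named H3mmT were taken as the H3t line. The 3′-seq tables list histone genes and were not used here.

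Values were tested as log2(FPKM + 1) with limma 3.58.1 in R 4.3.3 (trended, robust variance, tested on simulated data), after a filter at a mean of 1 FPKM over the libraries in the fit. Differentiated and growing libraries were compared with the 10 lines as replicates (10 against 10), and H3 types over the 18 GFP-H3 libraries. The fit of H3 types shared 1 spread per gene between the states. Cultures behind the lines are not described, so p-values measure only the spread between these samples. Same-line libraries deviated together (r = 0.27 to 0.88, above 0.1 in 10 of 10 lines, since each pair comes from 1 line), and a fit with line as a replicate block was an alternative, as were other pseudocounts, filters, normalizations and left-out lines. Gene positions are from GENCODE M1 (NCBIM37), and promoters from RefSeq.

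The 10 genes and the other gene lists were chosen with earlier results of these data known. Beside the 10 genes the text names, of other calcium genes, up to 3 called in each role with the largest difference in each direction, fixed paralogs, up to 3 genes of other lists and the 3 genes most alike to each member. Genes outside this rule (Gapdh, Myog, Myh6, Mybpc3, Nkx2-5, Gata4, Cacnb2, Nfatc1, Calr, Stim1, Stim2, Orai1, Orai3, Fkbp1a, Pcna, Rabep2 and genes that overlap a member) were named after their values were seen. Values of 2 other calcium genes that this rule names are not reported here.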

Additional observations from a re-analysis of the deposited data

Results flagged for a closer look

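For each of the 10 genes the 10 growing and the 10 differentiated libraries were searched for a library apart from the other 9. The log2(FPKM + 1) scale was used, which is 20 groups. For normally distributed values chance alone sets a library apart in about 1 of 20 groups. Many growing groups lay near 0, so this rate need not hold for them. In growing cells, Ryr1 in H3mm7 was at 0.736 FPKM, and its gap to the next library took 0.588 of the whole range of the group. Sln in growing H3.3 cells was at 0.155 FPKM, the only value above 0 among the 10 growing libraries. Any single value above 0 would have been flagged there. No library stood apart in the differentiated group of any of the 10 genes by this measure.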

How the results depend on the processing

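Of the values of single genes of the set, 367 kept their direction and their side of the threshold under the alternatives, 7 lost the call and 5 changed sign without being called. For differentiated against growing cells, 1893 genes were called, and 1093 with a pseudocount of 5 FPKM. The 9 tested genes were called in every fit, except that Casq1 was not called with a pseudocount of 5 FPKM (0.77) and had too low a mean for the filter at 5 FPKM. With line as a replicate block the count was 1910, every member call stood, and adjusted p of the 9 genes stayed below 0.05. Between the H3 types, 84 genes were called in differentiated cells, and 134 and 26 with pseudocounts of 0.1 and 5 FPKM, 19 with no filter, 47 with a filter at 5 FPKM, and 3 (without H3.1) to 293 (without H3.2) when a line was left out. In growing cells 23 were called, and 51 and 7 with those pseudocounts, 6 with no filter, 14 with a filter at 5 FPKM, and 2 (without H3.1) to 25 (without H3mm11) when a line was left out. For the interaction 0 were called, and 2 with a pseudocount of 5 FPKM, 1 with a filter at 5 FPKM, 5 with quantile normalization, 3 with line as a replicate block, and 0 to 2 with a line left out. The members called in growing cells were 1, and 0 with no filter and 0 to 1 with a line left out. Between types in differentiated cells, Trdn went from -0.88 without H3mm12 to 0.045 without H3.1, where its sign changed, and Atp2a1 from -0.43 without H3t to 0.63 without H3.2, and was below 0 also without H3mm12, H3mm13 or H3mm16. The cause was not tested. Depth is unknown, so levels near 0 cannot be given an error from counting.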
